A study of Mus musculus with 9 samples.

Results

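The claudins expressed along the nephron were followed in kidneys of young and old wild-type mice. The set was 10 genes chosen by name for their place along the tubule (Cldn1, Cldn2, Cldn3, Cldn4, Cldn7, Cldn8, Cldn10, Cldn12, Cldn16 and Cldn19), out of 13081 genes in the deposited table, and the rule used no expression value, although earlier results of these data were known when the set was drawn up. Whole-kidney RNA had been profiled by QuantSeq, an RNA-seq method that reads only the 3′ end of each polyadenylated transcript, giving 4 young libraries (mice of 3 months) and 5 old ones (16 months). All mice were wild type, and the labels name no treatment beside age. The strain was C57BL/6. The labels do not give the sex of each mouse.

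Claudins are membrane proteins with 4 transmembrane stretches that join neighbouring epithelial cells at the tight junction and set what can pass between the cells. Some form pores for cations, anions or water, and others seal the junction. Each nephron segment carries its own combination: Cldn2 and Cldn10 in the proximal tubule, Cldn10, Cldn16 and Cldn19 in the thick ascending limb, and Cldn3, Cldn4, Cldn7 and Cldn8 in more distal segments and the collecting duct. Mutations in Cldn16 or Cldn19 cause renal magnesium and calcium wasting. Cldn10 is made from alternative starts, and the encoded proteins prefer anions or cations.

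Cldn10 and Cldn2, the claudins with the most reads and both of the proximal tubule, moved in opposite directions, so the bases just upstream of their RefSeq starts are shown. RefSeq promoter sequences on GRCm38.p6 were found for 9 of the 10 genes. Each line holds the 150 bases before a RefSeq start, on the plus strand and 5′ to 3′, and the capitals mark matches to searched motifs on either strand. The lines are chr14:118787721-118787870 and chr14:118854800-118854949 for the upstream and downstream RefSeq starts of Cldn10, and chrX:139800658-139800807 for Cldn2. GENCODE vM21 places the downstream Cldn10 start earlier, at 118854732. By that annotation the downstream window lies inside the first exon (118854732 to 118855209) and not before the start.

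Cldn10 upstream start: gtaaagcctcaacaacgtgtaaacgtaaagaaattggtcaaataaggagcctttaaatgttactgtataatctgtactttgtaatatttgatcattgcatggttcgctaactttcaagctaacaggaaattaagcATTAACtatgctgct
Cldn10 downstream start: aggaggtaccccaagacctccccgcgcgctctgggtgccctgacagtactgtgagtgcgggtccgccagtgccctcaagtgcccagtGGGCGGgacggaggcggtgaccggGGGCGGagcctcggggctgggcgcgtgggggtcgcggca
Cldn2: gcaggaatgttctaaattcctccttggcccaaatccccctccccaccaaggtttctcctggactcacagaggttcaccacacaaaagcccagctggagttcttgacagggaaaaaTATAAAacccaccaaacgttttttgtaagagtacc

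The search covered 5 motifs. Housekeeping-type promoters often carry the GC box, GGGCGG. The TATA box was searched as TATAAA, and the core of the HNF1 site as GTTAAT. For Grainyhead factors the letters were AACCGGTT. For HNF4, a regulator of proximal tubule genes, they were CAAAGTCCA. None of these letter strings overlapped another in the 3 windows shown. Over 32851 mouse promoter windows of the same length, the GC box was found in 28.6%, the TATA box in 7.57%, the HNF1 core in 3.71%, the Grainyhead site in 0.0639% and the HNF4 site in 0.271%. The upstream Cldn10 window had a GC content of 33.3% and held 1 HNF1 core, read here from the opposite strand. The downstream window had a GC content of 74.0% and held 2 GC boxes. The Cldn2 window had a GC content of 47.3% and held 1 TATA box, and the median over all windows was 54.0%. A match here describes letters and not a bound site.

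Cldn10 (ENSMUSG00000022132) lies at chr14:118787908-118875489 on the plus strand of GRCm38 in GENCODE vM21, which is an earlier build than the one the counts were made on. Its 3 coding transcripts start at 118787908, 118787918 and 118854732, and their last exons all begin at 118874192. Those exons end at 118874524 and 118874525 for the upstream start and at 118875489 for the downstream start. Counts per gene pool the products of both starts. Cldn2 (ENSMUSG00000047230) lies at chrX:139800828-139811386 on the plus strand. On the same build Cldn7 (ENSMUSG00000018569) lies at chr11:69964779-69967885 on the plus strand, and Cldn12 (ENSMUSG00000046798) at chr5:5489537-5514958 on the minus strand. Cldn3 (ENSMUSG00000070473) and Cldn4 (ENSMUSG00000047501) are single-exon genes at chr5:134986214-134987472 (plus strand) and chr5:134945119-134946934 (minus strand). Among the others, Cldn3 and Cldn4 are neighbours on chromosome 5, with 39279 bases and 0 other coding genes between them, and Cldn1 and Cldn16 are neighbours on chromosome 16, 91293 bases apart. The last 500 bases of the longest coding transcript of each of the 10 genes shared 0% of their 50-base words with other genes. For Cldn10 that was the transcript of the downstream start, so the ends of its other transcripts were not covered. Cldn3 and Cldn19 are overlapped by antisense genes, and the counting was by strand.

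The libraries held 4486406 to 6355095 reads in the table, and the claudins had 16 to 2268 reads per gene and library. Mitochondrial transcripts took 27.0% to 29.7% of the reads in young libraries and 35.8% to 38.1% in old libraries. Library titles carry a prefix that coincides with age, so any difference in preparation cannot be told apart from age. Kidney tubule markers were detected (9 of 9 proximal tubule genes), and 0 of 4 adrenal and 1 of 5 urothelial markers were in the table. In whole tissue, fewer cells of a type and less RNA per cell cannot be told apart.

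Of the 10 claudins, 2 rose with age (Cldn2 and Cldn7), 3 fell (Cldn10, Cldn12 and Cldn3) and 5 did not pass the test. A gene was called when its adjusted p was under 0.05 in limma, fitted on log2(normalised count + 1) over all 12667 genes tested. The background was high: 59.7% of all tested genes were called, 29.2% higher and 30.5% lower in old kidneys, so the share of claudins called was not above it. For 4 claudins the young and old libraries did not overlap, 2 higher and 2 lower in old kidneys, where 49.0% of all genes did not overlap (23.3% higher and 25.7% lower). The median log2 fold change was −0.04 for the claudins and −0.00 for all genes tested.

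**Figure D1:**
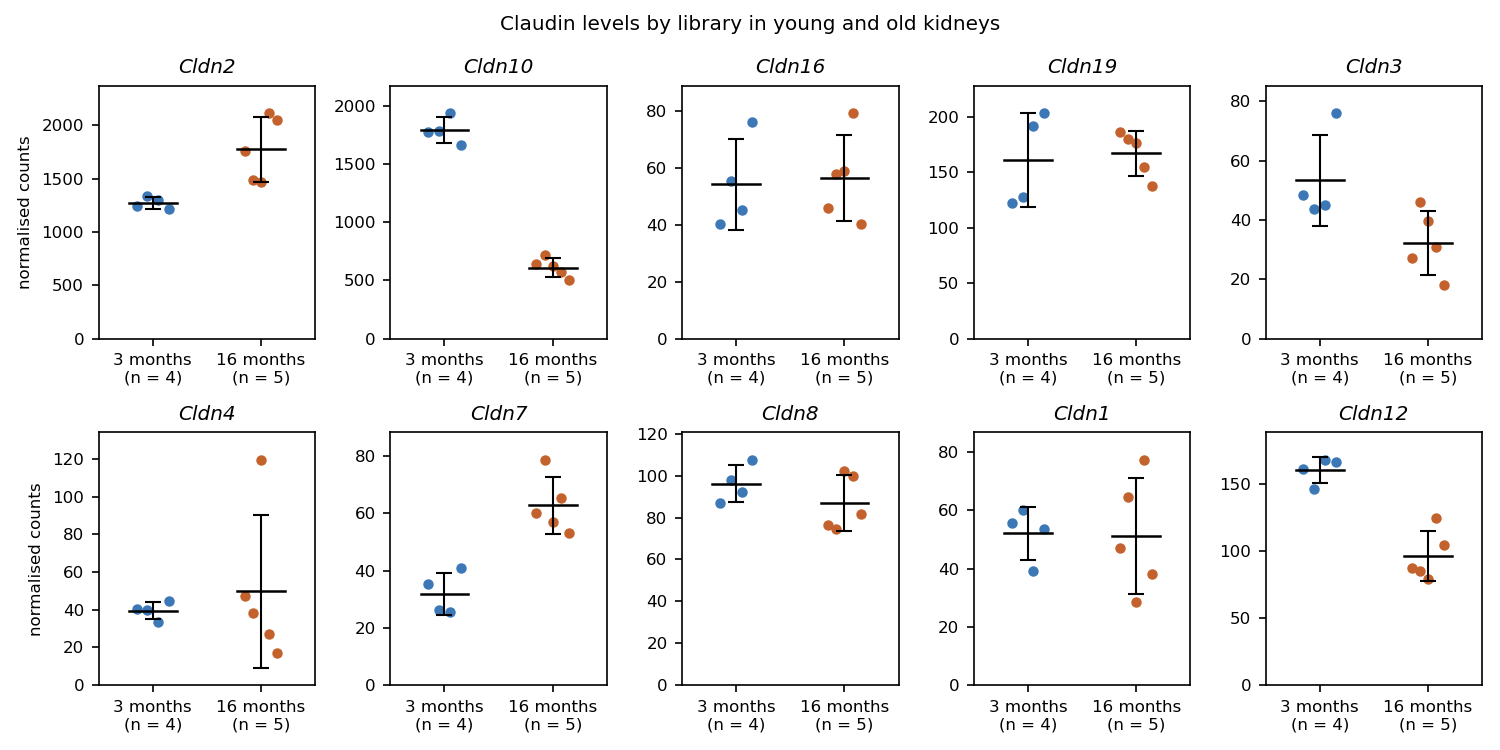
Normalised counts of the 10 claudins in each library (vertical axes, starting at 0) for young kidneys (3 months, n = 4, blue) and old kidneys (16 months, n = 5, orange). Points are libraries, long lines the means and error bars the SD. Cldn10 and Cldn12 sit lower and Cldn2 and Cldn7 higher in all old libraries, and the groups overlap for the other 6 genes.

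Cldn10 showed the largest fall. Its normalised counts were 1775, 1786, 1941 and 1670 in young libraries and 640, 716, 622, 569 and 507 in old libraries. All old libraries lay below all young ones, with means of 1793 ± 112 (SD, n = 4) and 611 ± 78.5 (SD, n = 5). The log2 fold change was −1.56 (SE 0.10, limma adjusted p = 3.93e-10). Over all alternatives tried it ranged from −1.62 to −1.32 and was called in each.

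Cldn2, which forms a pore for sodium and water in the proximal tubule, moved the other way. Its normalised counts were 1244, 1341, 1301 and 1214 in young libraries and 1757, 1490, 1464, 2116 and 2048 in old libraries. The groups did not overlap, and the old libraries spread more widely, with means of 1275 ± 56.9 (SD, n = 4) and 1775 ± 304 (SD, n = 5). The log2 fold change was 0.46 (SE 0.11, limma adjusted p = 0.00161), and it was called under every alternative tried.

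The opposite changes of these 2 genes appear within each library as the ratio of Cldn10 to Cldn2 reads, which does not depend on the scaling of the library. The ratio was 1.43, 1.33, 1.49 and 1.38 in young kidneys and 0.364, 0.481, 0.425, 0.269 and 0.248 in old kidneys. Since 3′ reads of different genes need not be recovered equally, the ratio compares libraries and not the levels of the 2 genes. Cldn10 made up 45.7% to 49.99% of all reads of the 10 claudins in young libraries and 16.6% to 25.3% in old libraries, while Cldn2 went from 33.2% to 36.0% up to 52.6% to 67.2%. The summed level of the 10 genes was 3608 to 3884 normalised counts in young and 2747 to 3344 in old libraries.

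**Figure D2:**
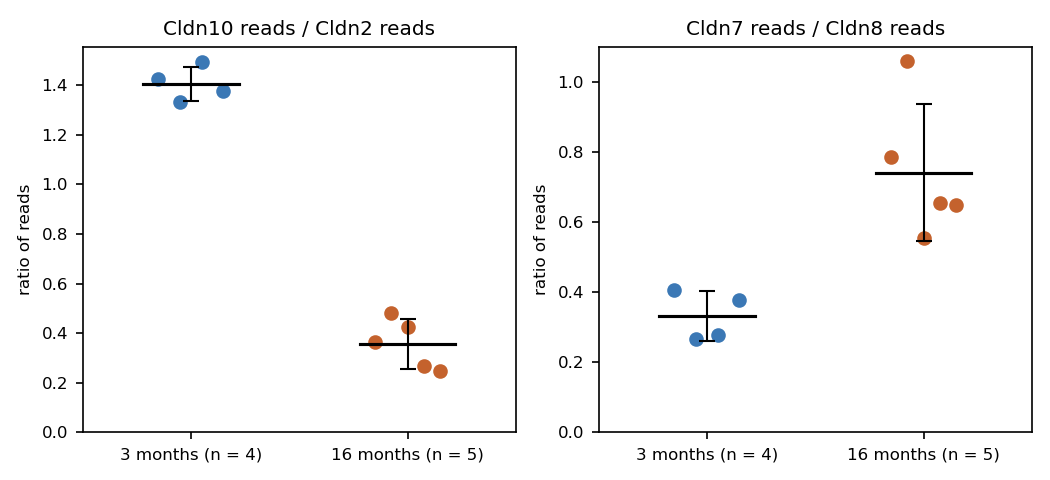
Ratio of reads of Cldn10 to Cldn2 (left) and of Cldn7 to Cldn8 (right) in each library, with the mean (line) and SD (bar) for young (n = 4) and old (n = 5) kidneys. The first ratio is 1.33 to 1.49 in young and 0.248 to 0.481 in old libraries, and the second is 0.267 to 0.406 in young and 0.554 to 1.06 in old libraries.

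Each claudin was then set against the level of its own segment, by subtracting the mean log2 level of that segment's marker genes in each library before the same limma fit. The marker means rose by 0.26 for the proximal tubule (9 genes) and 0.20 for the thick ascending limb (7 genes) and fell by 0.31 for the collecting duct (9 genes). These shifts depended on the summary: with the median of the markers in place of the mean, they were −0.53 for the proximal tubule, −0.12 for the thick ascending limb and −0.25 for the collecting duct. Old replicate 3 had the highest collecting duct mean of all libraries, and without it that mean fell by 0.48. Single markers moved in both directions. In the proximal tubule Slc5a12 and Lrp2 rose by 1.63 and 0.95 on the log2 scale, and Slc22a6 and Slc5a2 fell by 1.26 and 0.52. In the thick ascending limb Egf and Slc12a1 rose by 1.04 and 0.74, and Casr fell by 0.87. In the collecting duct Aqp4 rose by 1.70, and Aqp3 and Scnn1g fell by 1.54 and 0.94.

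Relative to its segments, Cldn10 was still lower in old kidneys, by a log2 difference of −1.82 against proximal tubule markers (SE 0.12, limma adjusted p = 6.35e-10) and −1.76 against thick ascending limb markers (SE 0.13, limma adjusted p = 2.47e-10). Against the same references 58.0% and 56.5% of all genes were called. With the median of the markers the Cldn10 differences were −1.03 for the proximal tubule and −1.44 for the thick ascending limb, and both were called by limma (adjusted p = 2.68e-07 and 1.62e-09). Cldn2 was higher than its proximal tubule reference by 0.20 (SE 0.10), which did not pass the test (limma adjusted p = 0.0917). With the median of the markers in place of their mean this became 0.99 and was called, and leaving out old replicate 2 gave 0.26 with an adjusted p of 0.0316. Over the alternatives that adjusted p ranged from 1.17e-06 to 0.227, so whether Cldn2 passed the test relative to its segment changed with the summary of the markers and with single libraries.

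**Figure D3:**
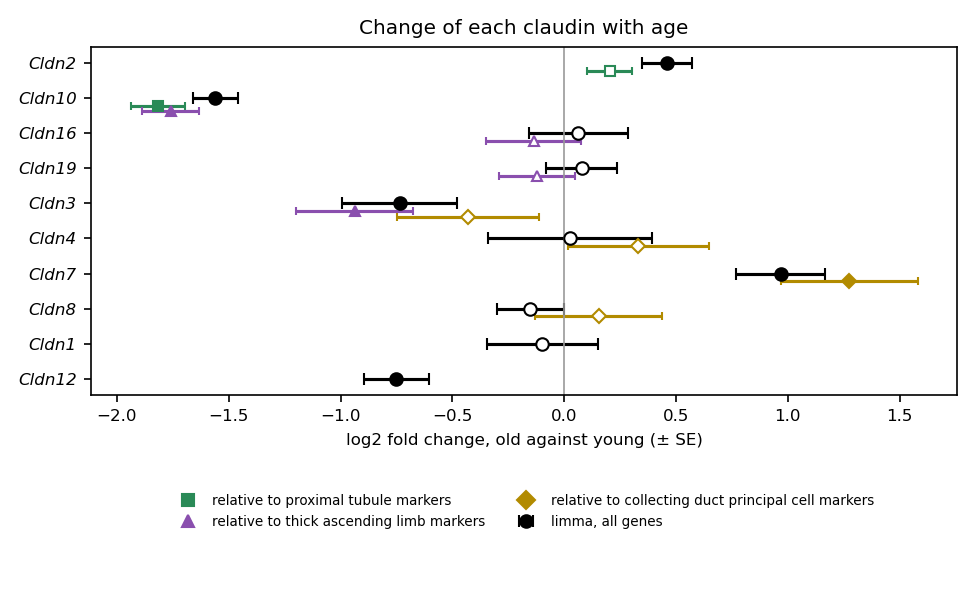
Log2 fold change (horizontal axis, old against young, with SE bars) of each claudin from the fit over all genes (black) and relative to the marker genes of its segments (coloured). Filled symbols passed an adjusted p of 0.05 and open symbols did not. Cldn10 lies near −1.56 and at −1.82 and −1.76 relative to the mean of its segment markers (−1.03 and −1.44 relative to their median), and Cldn7 lies near 0.97 and at 1.27 relative to collecting duct markers.

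The claudins of the thick ascending limb that form its pathway for calcium and magnesium showed no called difference. Cldn16 ranged from 40.1 to 76.0 normalised counts in young and from 40.3 to 79.3 in old libraries, and its log2 fold change was 0.06 (95% interval −0.40 to 0.53, limma adjusted p = 0.820). Cldn19, which assembles with Cldn16, ranged from 122 to 204 and from 138 to 186, with a log2 fold change of 0.08 (95% interval −0.25 to 0.41, limma adjusted p = 0.692). Relative to the segment's markers the differences were −0.14 and −0.12, also not called. These intervals leave room for a change of either sign, and the ratio of Cldn16 to Cldn19 reads overlapped between the ages (0.235 to 0.432 in young and 0.247 to 0.512 in old libraries).

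Cldn3, a sealing claudin, was lower in old kidneys. Its normalised counts were 48.3, 43.7, 45.1 and 76.0 in young libraries and 27.1, 45.9, 39.6, 30.8 and 18.0 in old libraries. The groups overlapped, since old replicate 2 lay above 2 of the young libraries. The log2 fold change was −0.74 (SE 0.26, limma adjusted p = 0.0190). Without young replicate 4, its highest library, the log2 fold change was −0.55 and the limma adjusted p was 0.0945, and over the alternatives it ranged from 0.00631 to 0.201. Against thick ascending limb markers the difference was −0.94 (limma adjusted p = 0.00429), and −0.61 with the median of the markers (adjusted p = 0.0701). Against collecting duct markers it was −0.43 (limma adjusted p = 0.266).

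Among the claudins of the collecting duct, Cldn7 rose. Its normalised counts were 35.2, 26.2, 25.5 and 40.7 in young libraries and 60.1, 78.8, 56.8, 65.3 and 53.0 in old libraries. All old libraries lay above all young ones. The log2 fold change was 0.97 (SE 0.20, limma adjusted p = 0.000376). Against collecting duct markers, which fell on average, the rise was 1.27 (SE 0.31, limma adjusted p = 0.000195), where 45.2% of all genes were called. Cldn7 was called under every alternative in which it was tested.

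Cldn8, which acts in the same segment and binds Cldn4 to form a chloride pathway, ranged from 86.8 to 108 normalised counts in young and from 74.4 to 102 in old libraries. Its log2 fold change was −0.15 (95% interval −0.47 to 0.16, limma adjusted p = 0.395) and it was not called against collecting duct markers either (0.15, limma adjusted p = 0.682). The ratio of Cldn7 to Cldn8 reads was 0.267 to 0.406 in young and 0.554 to 1.06 in old libraries, without overlap.

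Cldn4 varied more between old kidneys than between ages. Its normalised counts were 40.1, 39.8, 33.3 and 44.4 in young libraries and 47.1, 38.3, 120, 27.1 and 17.0 in old libraries. Old replicate 3 stood far above the rest. The log2 fold change was 0.03 (95% interval −0.74 to 0.79, limma adjusted p = 0.957), and without that library it was −0.36 (adjusted p = 0.260, with a range over the alternatives of 0.134 to 0.968).

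The same library was the highest of all 9 for 5 of the 9 collecting duct markers (Aqp2, Aqp4, Avpr2, Fxyd4 and Gata3). Among the old libraries alone it was also the highest for Aqp3 and Scnn1b, that is for 7 of the 9, and not for Hsd11b2 and Scnn1g. The 4 markers Aqp3, Hsd11b2, Scnn1b and Scnn1g were called lower in old kidneys, and in old replicate 3 too they lay below every young library. Aqp2, the vasopressin-regulated water channel, was at 2267 normalised counts against 334 to 694 in the other old libraries, and Fxyd4, a sodium pump regulator, at 443 against 87.0 to 159. Aqp3, a water channel of the basolateral side, was at 220.1 against 132 to 206 in the other old libraries and 441 to 540.2 in the young ones. Hsd11b2, the enzyme that inactivates corticosterone, was at 372 against 252 to 461 in the other old libraries and 621 to 712 in the young ones. The summed level of the 9 collecting duct markers was 2454 to 3165 in young and 1352 to 3945 in old libraries. It was also highest for the urothelial gene Upk3a (89.2) and the adipocyte gene Adipoq (189). The summed level of the adipocyte markers (4 of 4 in the table) ranged from 271 to 1427 in young and from 56.0 to 1033 in old libraries. The part of tissue sampling in the Cldn4 value was not tested. Within libraries, the ratio of Cldn4 to a marker was highest of all in old replicate 3 for 6 of the 9 markers and not for Aqp2, Aqp4 and Fxyd4. For Aqp3 it was 0.544 in that library, 0.129 to 0.288 in the other old libraries and 0.0687 to 0.0909 in young ones. For Fxyd4 it was 0.270 in that library, within the 0.195 to 0.368 of the other old libraries.

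**Figure D4:**
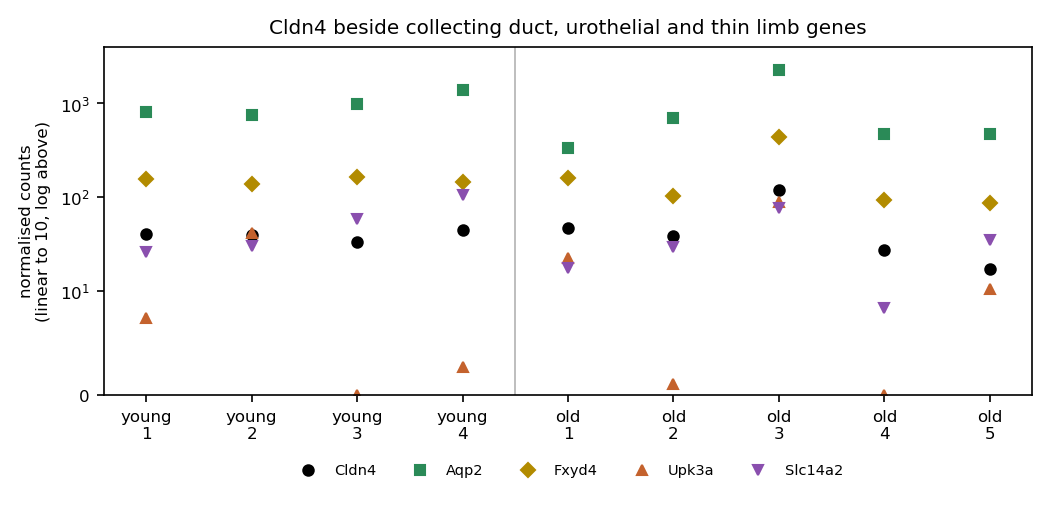
Normalised counts (vertical axis, linear to 10 and logarithmic above) of Cldn4, the collecting duct genes Aqp2 and Fxyd4, the urothelial gene Upk3a and the thin limb gene Slc14a2 in the 4 young and 5 old libraries. In old replicate 3 Cldn4 is at 120, Aqp2 at 2267, Fxyd4 at 443 and Upk3a at 89.2, each the highest of its gene, while Slc14a2, at 76.1 there, is the highest of the old libraries and is exceeded by young replicate 4 at 106.

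The remaining claudins are less tied to a single segment. Cldn12, an atypical claudin linked to calcium permeability, was 161, 147, 169 and 167 normalised counts in young libraries and 87.2, 85.3, 79.1, 125 and 105 in old libraries. All old libraries lay below all young ones, and the log2 fold change was −0.75 (SE 0.15, limma adjusted p = 0.000212). It was called under every alternative tried. Cldn1, a sealing claudin found in the parietal cells of the glomerulus, ranged from 39.2 to 60.2 in young and from 28.4 to 77.4 in old libraries, with a log2 fold change of −0.10 (95% interval −0.62 to 0.42, limma adjusted p = 0.756).

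Of 21 other claudin and claudin domain genes looked for, 3 were in the table and 0 were called by limma, edgeR or DESeq2, with 0 at an unadjusted p under 0.05 in limma. With a transcript length trend removed, 1 was called higher. These were Cldn5, the endothelial claudin (0.25 on the log2 scale, unadjusted p = 0.446 in limma), Cldn15 (−0.24, unadjusted p = 0.390 in limma) and Cldnd1 (0.06, unadjusted p = 0.596 in limma).

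The genes whose log2 level followed Cldn10 most closely over the 9 libraries were Laptm4a, Selenok and Hdgf, with Pearson's r of 0.999, 0.999 and 0.997. The libraries form 2 age groups that differ for most genes, so r runs across both ages, and 988 genes had r above 0.95. Laptm4a fell by 1.47, Selenok by 1.33 and Hdgf by 1.63 on the log2 scale.

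In the lists that follow, each gene said to rise or fall passed the limma test (adjusted p under 0.05) and values are log2 fold changes unless given as counts. Genes that act on claudins moved in both directions: of 14, 4 rose and 6 fell, with a median of −0.23, where 29.2% of all genes tested rose and 30.5% fell. Klhl3, the substrate adaptor of a ubiquitin ligase for WNK kinases and Cldn8, rose from 236 ± 26.1 (SD, n = 4) to 519 ± 40.9 normalised counts (SD, n = 5), a log2 fold change of 1.14 (SE 0.11, limma adjusted p = 4.35e-08). The kinases Wnk1 and Wnk4, which control salt transport in the distal nephron, rose by 0.59 and 0.47. Grhl2, a transcription factor of claudin genes in epithelia, rose by 1.31 from a low level (5.73 to 16.3 normalised counts in young, 21.2 to 30.4 in old libraries). Lnx1 fell by 2.33 (from 11.8 to 33.0 normalised counts down to 1.06 to 6.08), and every old library lay below the 10 counts of the filter. Snai1, a repressor of epithelial junction genes, fell by 1.71 (from 11.7 to 15.4 normalised counts down to 1.06 to 9.84). Lnx1 and Snai1 reached the filter of 10 counts in 4 libraries through the young libraries alone. Both could thus be called only as falls, and both are among the 6. Hnf4a, a proximal tubule transcription factor, fell by 0.93. Casr, the calcium-sensing receptor, fell by 0.87. Epcam, which binds Cldn7, had a log2 fold change of −0.17 that was not called (limma adjusted p = 0.329).

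Tight junction scaffolds, the proteins under the membrane that anchor claudins, had 8 of 15 genes higher and 3 lower (all genes 29.2% and 30.5%), with a median of 0.49. Tjp1, which encodes ZO-1, rose from 59.3 to 77.0 normalised counts in young libraries up to 109 to 265 in old libraries, a log2 fold change of 1.54 (SE 0.20, limma adjusted p = 2.06e-06). Cgnl1 (paracingulin) rose by 0.99 and Patj by 0.94. Cgn (cingulin), a relative of Cgnl1, fell by 1.72, from 53.2 to 78.8 down to 12.7 to 31.4 normalised counts, and Tjp3 and Amot fell by 0.71 and 0.55. The related genes Cgn and Cgnl1 thus moved in opposite directions.

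The other membrane proteins of the tight junction had 1 of 10 tested genes higher and 4 lower, with a median of −0.25, so 5 of 10 were called against 59.7% of all genes. Ildr2 rose by 0.70. Jam3, Crb3 and Lsr fell by 0.95, 0.69 and 0.65, where Lsr marks the contacts of 3 cells. Ocln (occludin) was 34.0 to 40.7 normalised counts in young and 30.4 to 43.6 in old libraries, with a log2 fold change of −0.09 (limma adjusted p = 0.703).

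Polarity genes, which place the junction along the cell's side, had 2 of 9 higher and 3 lower (median −0.38), near the 59.7% of all genes called. Llgl1 fell from 71.2 to 107 normalised counts down to 0 to 12.7, Llgl2 fell by 1.69 and the kinase Prkci by 1.36 on the log2 scale, while Pard6b and Pard3 rose by 0.49 and 0.38. Adherens junction genes had 2 of 11 higher and 5 lower (median −0.32, against 29.2% of all genes higher and 30.5% lower). Ctnnd1 (p120 catenin) fell from 441 to 473 normalised counts down to 9.13 to 35.0, a log2 fold change of −4.88 (SE 0.27, limma adjusted p = 4.50e-11). Nectin1 and Jup fell by 1.82 and 1.30, and Ctnna1 and Nectin3 rose by 0.90 and 0.29.

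Genes of calcium and magnesium transport, the cations that Cldn16 and Cldn19 let pass, had 6 of 13 tested members higher and 3 lower (29.2% and 30.5% of all genes), with a median of 0.18. Trpm6, the magnesium channel of the distal convoluted tubule, rose from 18.8 to 37.9 normalised counts in young to 83.1 to 94.2 in old libraries, a log2 fold change of 1.77 (SE 0.20, limma adjusted p = 4.37e-07). The calcium pump Atp2b4 rose by 1.38 and Egf by 1.04. The magnesium transporters Slc41a3 and Slc41a1 fell by 1.95 and 0.99, and the calcium-binding protein Calb1 by 0.37. Slc41a3 was thinly counted, at 24.6 to 43.1 normalised counts in young libraries. Old replicate 2, at 24.1, lay just below that range, and the other old libraries were at 2.12 to 7.46.

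**Figure D5:**
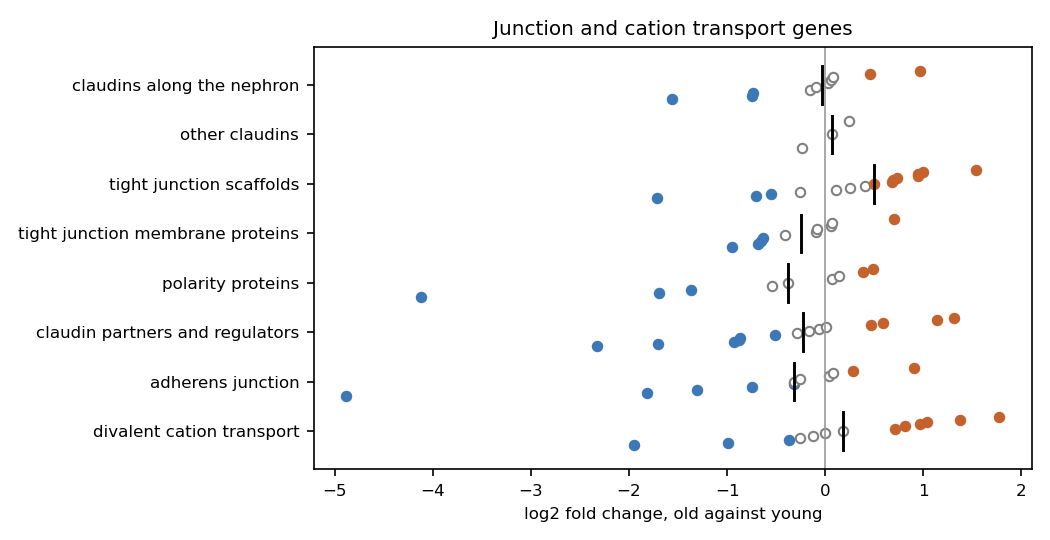
Log2 fold change (old against young) of each tested gene in the claudin set and 7 related lists. Orange points were called higher, blue points called lower and open points not called, and black bars are the list medians. The claudin median is −0.04, the scaffold median 0.49 and the adherens junction median −0.32, and every list other than the 3 other claudins has calls in both directions.

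The counts for marker lists of nephron segments and other cell types stand against 29.2% of all genes called higher and 30.5% called lower. Of the distal convoluted tubule list, 3 of 5 genes were higher and 2 lower. Intercalated cell genes had 1 of 6 higher and 4 lower, and podocyte genes 3 of 6 higher and 2 lower. Endothelial genes had 4 of 6 higher and 0 lower, immune genes 2 of 5 higher and 0 lower, and fibroblast genes 0 of 5 higher and 4 lower. Of the thin limb list, 0 of 2 tested genes were higher and 1 lower. Proximal tubule genes had 5 of 9 higher and 3 lower, thick ascending limb genes 2 of 7 and 1, and collecting duct genes 1 of 9 and 4. Of 3 adipocyte genes tested, 0 were higher and 1 lower, and the single urothelial gene tested was not called.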

How the data were processed

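QuantSeq 3′ libraries (stranded single reads, NextSeq 550) were made from whole-kidney RNA. The labels give a version of the kit and the study's methods give none. The authors aligned reads with TopHat2 to GRCm39, assigned them to GENCODE vM26 genes with HTSeq 0.6.1, keeping strand, and divided each library's counts by its DESeq size factor. This deposited signal is thus proportional to reads. Taking the smallest positive value as 1 read made 100% of the values whole (tolerance 0.01). The table leaves out genes with few reads (lowest mean 4.49). Reads carry no molecular identifiers, so amplification copies could not be removed and the counts may hold more than counting error.

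The 12667 genes that reached 10 normalised counts in 4 or more libraries were tested with limma 3.58.1 (trend, pseudocount 1, R 4.3.3), old against young, with Benjamini-Hochberg adjustment across all of them. Groups came from the age in the labels. The labels do not say outright that each library is a separate mouse, so p-values measure only the spread between these libraries, which may be technical. Simulated log2 changes of 1 were recovered in 89% of cases and of 2 in 100%, over 12667 genes, with 9 false calls. The simulation changed 100 genes of each size and gave every gene the same dispersion. These rates need not hold in the data, where far more genes were called and some varied more. edgeR 4.0.16 and DESeq2 1.42.0 were run on the recovered whole reads as alternatives, beside other pseudocounts, filters, scalings and the leaving out of each library.

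The claudins and gene lists were chosen with earlier results of these data known. Every claudin is named. Of each list, at most the 3 largest called rises and falls are named (2 for segment markers), with Tjp1, Ocln, Klhl3, Wnk4, Epcam and Casr. Members named beside Cldn4 (the collecting duct markers, Upk3a, Adipoq, Slc14a2) and the members of the short list of other claudins were chosen after their values were seen. Because 1 was added before the logarithm, fold changes of thinly counted genes are understated. Positions were read from GENCODE vM21 (GRCm38), an earlier build than the authors used.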

Additional observations from a re-analysis of the deposited data

Results flagged for a closer look

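A library far from the rest of its group was looked for in 58 groups and found in 3, where 2.9 would be expected by chance. The distance quoted is that to the closest other library, divided by the range of the group. Old replicate 4 had a mean log2 level of thick ascending limb markers of 9.23, and the remaining old kidneys lay between 8.89 and 8.96 (distance 0.796). Cldn4 supplied 4.36% of the claudin reads of old replicate 3, where the remaining old kidneys lay between 0.557% and 1.58% (distance 0.729). Old replicate 1 had 0.141 Cldn4 reads per Aqp2 read, where the remaining old kidneys lay between 0.0362 and 0.0578 (distance 0.795).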

How the results depend on the processing

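No paired analysis was possible because the titles carry no replicate number and nothing ties a young library to an old one. The count of called claudins was 5 and was 3 when only genes averaging 100 normalised counts or more were kept, which leaves 4 claudins to test. That filter took the called genes from 7568 of 12667 (59.7%) to 4101 of 5655 (72.5%) and the called genes of the related lists from 47 to 30. Leaving out each library in turn gave 6900 to 7626 called genes, 4 to 5 claudins, 45 to 49 genes of the related lists and 4 to 5 of 10 claudin differences relative to segment markers (4 with all libraries). edgeR called 7649 genes and DESeq2 7532, with no adjusted p for 9. When mitochondrial genes were dropped before scaling to equal totals, the median of all genes shifted to 0.14 and 58.5% of called genes were higher, against 48.9% in the reported fit.

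Cldn2, Cldn7, Cldn10 and Cldn12 kept their direction and call under every alternative tried, except that Cldn7 was not tested with the filter of 100. Cldn3 kept its direction but lost its call without young replicate 4 (−0.55, adjusted p = 0.0945), under the mitochondrial scaling (−0.60, adjusted p = 0.0600) and with a transcript length trend removed (−0.38, adjusted p = 0.201), an alternative added after the data were seen. The cause was not tested. Relative to thick ascending limb markers the Cldn3 value was −0.61 with their median. Relative to proximal tubule markers Cldn10 was −1.82 with their mean and −1.03 with their median, called in both. Changes of sign were found only among claudins that were not called. Cldn1 became 0.042 under the mitochondrial scaling. With young replicate 2 and old replicates 1 and 3 left out together (the 3 libraries highest in Adipoq, Cfd and Upk3a, chosen after the data were seen), Cldn1 became 0.23, Cldn4 −0.56 and Cldn19 −0.10. Cldn8 became 0.056 with the length trend removed. Relative to the median of thick ascending limb markers, Cldn16 became 0.19 and Cldn19 0.20. Leaving out each library in turn gave −0.27 to 0.088 for Cldn1, −0.36 to 0.32 for Cldn4, −0.067 to 0.24 for Cldn16, −0.043 to 0.20 for Cldn19, and −0.26 to 0.015 for Cldn16 relative to thick ascending limb markers. Cldn4 had the largest SE of the 10 (0.37), with 118 reads in old replicate 3 and as few as 16 in another old library. The cause was not tested.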
